A study of Mus musculus with 30 samples.

Results

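The 9 genes described here are factors of the forebrain interneuron lineage: the homeobox genes Dlx1, Dlx2, Dlx5 and Dlx6, the antisense RNA gene Dlx6os1 of the Dlx5 and Dlx6 locus, the zinc finger genes Sp8 and Sp9, and the homeobox genes Pbx3 and Meis2. They were taken as a list of symbols, and each was found in both count tables, among 53278 genes of the table of the subventricular zone (SVZ) and 50508 genes of the striatum table. All 9 had more than 1 CPM (counts per M, that is per mega, counts of the library) in at least 3 libraries of both tissues and were tested, with 16375 SVZ genes and 15419 striatum genes in all. In the striatum Sp8 passed this limit only through the control libraries P1, T1 and T4.

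RNA was sequenced from the SVZ, the germinal wall of the lateral ventricle, and from the neighbouring striatum of the same 15 adult C57Bl/6 mice, each of which gave 1 library from either tissue. The NestinTK transgene places a thymidine kinase under the enhancer of the second intron of Nestin, a gene of neural stem and precursor cells, and ganciclovir (GCV) kills dividing cells that hold the enzyme. The 5 ablated mice carried the transgene and received GCV from a subcutaneous minipump (NestinTK+GCV+, A1 to A5). The 10 control mice were 3 wild-type littermates with GCV (NestinTK-GCV+, G1 to G3), 3 wild-type littermates with PBS (NestinTK-PBS+, P1 to P3) and 4 transgenic mice with PBS (NestinTK+PBS+, T1 to T4). The control groups were pooled, as the authors did. A number within a group only names a mouse, and a letter and number stand for the same mouse in both tissues. The question was which of these factors fell where neuroblasts were lost and which were held by mature striatal neurons.

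Dlx proteins are homeodomain activators that specify GABAergic neurons of the ventral forebrain. Dlx1 and Dlx2 act first, in dividing progenitors, and Dlx5 and Dlx6 later, in neurons leaving division; in the adult SVZ the family is known from transit-amplifying cells and from the neuroblasts that migrate to the olfactory bulb. Sp8 and Sp9 are close zinc finger relatives that drive the making and migration of these interneurons, and Sp9 is also needed for striatopallidal spiny neurons. Meis2 and Pbx3 belong to the TALE class of homeodomain proteins, which bind DNA together and with other homeodomain partners. Meis2 acts in adult-born neuroblasts and is also a factor of spiny projection neurons, the main neurons of the striatum.

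Depth was 8.36 to 21.1 M counts for an SVZ library and 2.63 to 4.69 M counts for a striatum library. The ablated SVZ libraries, at 8.36 to 9.60 M, were on the shallow side. The labels call the SVZ material neural precursor cells, but 10 spiny neuron markers summed to at least 3916 CPM in every SVZ library, against 258 to 938 CPM for 10 neuroblast markers, so that neuron markers were abundant in all of them. Ttr, the main choroid plexus transcript, took over 1% of the SVZ counts of the controls P1, P2 and T1. In the striatum library T4 stood apart, with the lowest spiny neuron marker sum (4225 CPM) and the highest oligodendrocyte sum (5522 CPM). In such bulk samples fewer cells of a type and less RNA per cell cannot be told apart.

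Dlx1 and Dlx2 lie 9426 bases apart on chromosome 2, in convergent orientation, and Dlx5 and Dlx6 lie 9236 bases apart on chromosome 6 in the same arrangement, with Dlx6 inside the span of the antisense Dlx6os1 (GRCm38). Sp9 lies on chromosome 2 as well, 1725170 bases from Dlx2, and Sp8 on chromosome 12. The 250 bases before the transcription start are shown for the relatives Sp8 and Sp9, whose SVZ values part in what follows, and for Dlx2, which had no count in 1 ablated library (RefSeq, GRCm38.p6, strand of the gene). For Sp8 the second of its 3 listed starts is used, whose window lies within the annotated gene but overlaps none of its exons. Capitals mark GC boxes (GGGCGG on either strand) and, in Sp8 and Sp9, the longest run of bases that both windows share.
Sp8, chr12:118846983-118847232, plus strand: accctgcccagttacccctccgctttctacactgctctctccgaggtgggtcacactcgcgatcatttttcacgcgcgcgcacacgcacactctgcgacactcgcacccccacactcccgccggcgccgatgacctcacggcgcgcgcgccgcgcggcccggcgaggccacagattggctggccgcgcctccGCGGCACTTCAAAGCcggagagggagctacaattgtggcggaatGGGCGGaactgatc
Sp9, chr2:73271676-73271925, plus strand: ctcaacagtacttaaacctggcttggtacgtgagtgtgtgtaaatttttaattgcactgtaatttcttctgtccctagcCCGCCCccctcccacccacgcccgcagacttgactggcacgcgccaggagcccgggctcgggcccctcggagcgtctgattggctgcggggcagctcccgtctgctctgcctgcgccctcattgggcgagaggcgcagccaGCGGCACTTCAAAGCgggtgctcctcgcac
Dlx2, chr2:71546755-71547004, minus strand: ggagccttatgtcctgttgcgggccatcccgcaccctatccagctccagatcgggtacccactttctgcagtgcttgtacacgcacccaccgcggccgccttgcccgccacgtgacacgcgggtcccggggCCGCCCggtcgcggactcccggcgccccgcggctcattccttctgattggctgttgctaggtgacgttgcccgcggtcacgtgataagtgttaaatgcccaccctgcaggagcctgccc
The shared run, GCGGCACTTCAAAGC, is 15 bases long and ends 43 bases before the start in Sp8 and 15 bases before it in Sp9. Among the 32851 windows of this length listed for all mouse genes, 2 held it on either strand, those of Sp8 and Sp9. Each of the 3 windows held 1 GC box, a motif found in 32.7% of all windows. The homeodomain core TAATTA, held by 4.84% of all windows, was in none of the 3. Windows were listed for 6 of the 9 genes, and TAATTA was in the window of the third Sp8 start and in both windows of Dlx6os1. The other 2 Sp8 windows held no GC box and shared at most 8 and 7 bases in a row with that of Sp9; the window shown was the one with the longest shared run.

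In the SVZ, Dlx1 and Sp8 fell in the ablated mice, Dlx2 was lower short of the threshold, and the other 6 factors were not called. Mean Dlx1 was 4.26-fold lower than in control mice and mean Sp8 was at 1.91% of its control level. Sp9, Pbx3 and Meis2 were at 103%, 106% and 99.0% of theirs. A gene was called when edgeR's quasi-likelihood test gave an unadjusted p-value no higher than 0.01 together with a change of 2-fold or more. By this rule 2 of the 9 were called lower, against 1.22% of all genes tested, and none higher, against 0.373%. Sp8 is one of them and passed the limit on low values only through control libraries. That limit favoured a fall, so its call is not counted as support. At an unadjusted p-value under 0.05, 3 of the 9 were lower, Sp8 among them, against 6.09% of all genes. After Benjamini-Hochberg adjustment over all genes none of the 9 had a p-value under 0.05, which 0.00611% of genes reached. With DESeq2 in place of edgeR the adjusted p was 0.00602 for Dlx1 and 0.00115 for Sp8, and 0.249 for Dlx2. The share of all genes under 0.05 with DESeq2 is not given here, so the members cannot be set against it. The fitted log2 change was below 0 in 7 of the 9, against 51.9% of genes, and in none of them did all ablated libraries lie under all controls, which 0.147% of genes showed.

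**Figure D1:**
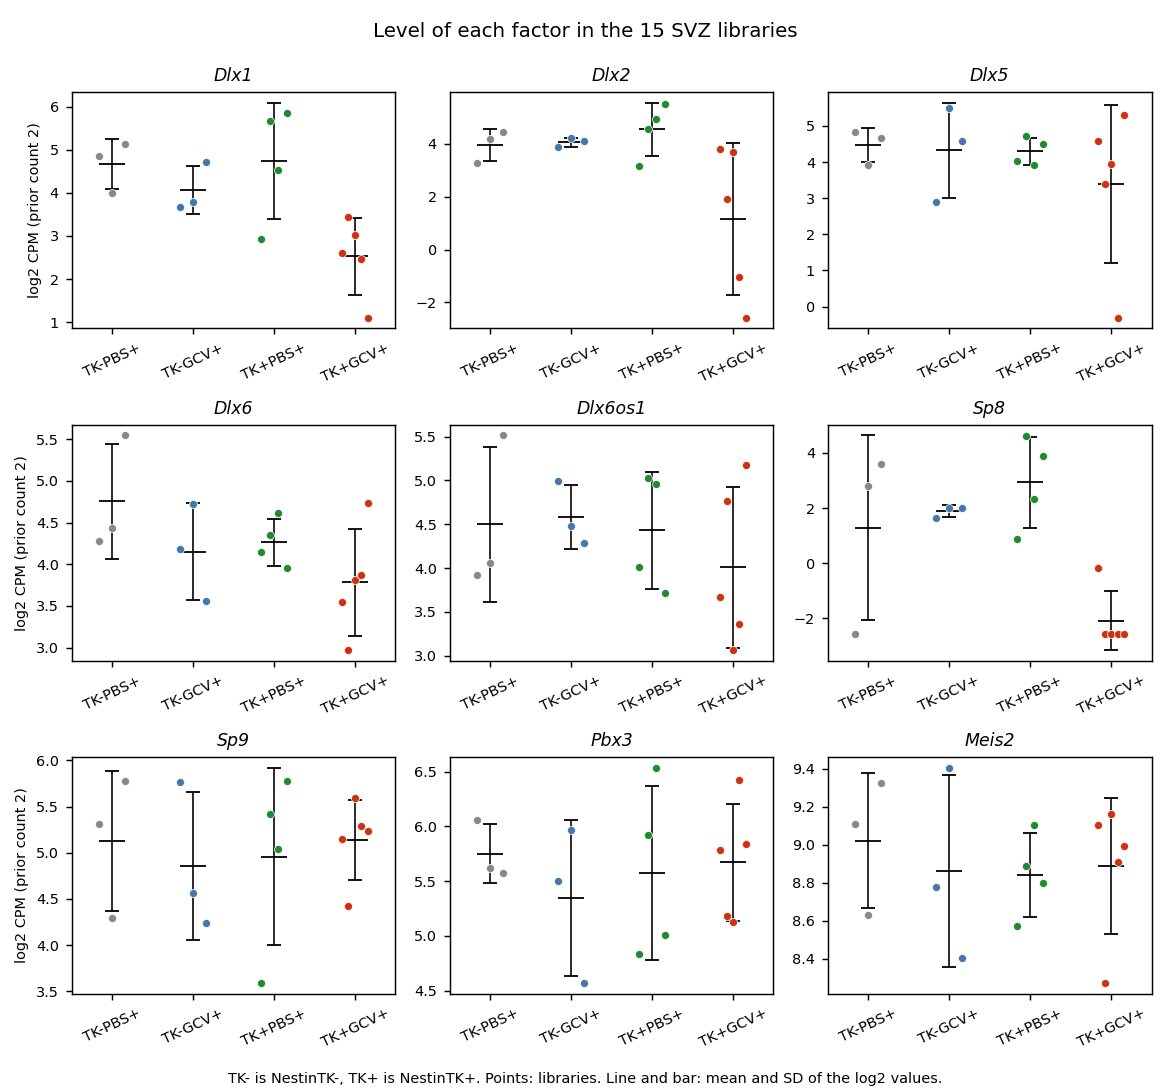
Level of each factor in the SVZ (y axis, log2 CPM with a prior count of 2) in the 4 groups (x axis); each point is 1 library, and the line and bar give the mean and SD of the log2 values. The 5 NestinTK+GCV+ libraries of Dlx1 all lie under the control median, 4 of 5 of Sp8 hold no count, those of Sp9 and Pbx3 lie among the controls, and so do 4 of 5 of Meis2.

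Dlx1, one of the earliest Dlx genes in the lineage, was read 16 to 77 times in the ablated SVZ libraries. Its level was 5.87, 10.7, 7.94, 5.33 and 1.98 CPM in A1 to A5. In the controls it was 12.7, 13.7 and 26.1 CPM in G1 to G3, 29.1, 15.9 and 34.9 CPM in P1 to P3, and 7.43, 50.6, 22.8 and 57.8 CPM in T1 to T4. All 5 ablated libraries lay under the control median, and 3 of them under the lowest control, T1. The means were 6.37 ± 3.24 CPM (SD, n = 5) and 27.1 ± 16.6 CPM (SD, n = 10), and the log2 change was -2.09 ± 0.53 (SE; edgeR adjusted p = 0.347). An exact permutation test of log2 CPM over all 3003 splits of the mice, two-sided and chosen after seeing the data, gave p = 0.00200. Adjusted over all genes it was 0.312, and no SVZ gene was under 0.05 in this test. Dlx1 shares 335 bases of its exons with the antisense gene Dlx1as, and the kit keeps no strand; Dlx1as itself had a mean of 1.45 CPM in ablated and 0.872 CPM in control mice.

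Sp8 was close to absent from the ablated SVZ. It had 6 counts in A1 (0.719 CPM) and 0 counts in A2 to A5. For counting error alone, 0 counts allow at most 0.313 to 0.359 CPM by library total, without TMM factors. In the controls it was 2.94, 3.85 and 3.86 CPM in G1 to G3, 0, 6.73 and 12.1 CPM in P1 to P3, and 1.67, 24.4, 4.83 and 14.7 CPM in T1 to T4. Thus 9 of 10 controls lay above every ablated library, and the groups overlapped through P1, a control with no Sp8 count and over 1% of its counts on Ttr. The means were 0.144 ± 0.321 CPM (SD, n = 5) and 7.51 ± 7.49 CPM (SD, n = 10), with a log2 change of -5.60 ± 1.53 (SE; edgeR adjusted p = 0.347). The exact permutation p was 0.00400 (adjusted p = 0.322). Without A1, the only ablated library with a count, the fitted change was -9.52, a value that rests on libraries at 0. The spread among controls was as wide as their mean, with a coefficient of variation of 99.7%.

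Sp9, the nearest relative of Sp8, was not called. Its ablated libraries held 35.2, 21.3, 47.9, 39.0 and 37.5 CPM, inside the control range of 11.9 to 54.7 CPM, whose median was 36.1 CPM. The log2 change was 0.04 ± 0.35 (SE; edgeR adjusted p = 0.988). The interval of 2 SE around it, -0.65 to 0.73, did not meet that of Sp8, -8.65 to -2.55, for which only A1 of the ablated libraries held a count. In log2 terms Sp8 lay 7.23 ± 1.15 (SD, n = 5) under Sp9 in ablated mice and 2.86 ± 1.97 (SD, n = 10) under it in control mice. All 5 ablated ratios were under the control median, but only 1 was under the lowest control, P1, which had no Sp8 count either. With no Sp8 count in A2 to A5, their ratios are set by the prior count and by Sp9, and no measured gap is read from them. Sp9 shares 270 exon bases with Cir1 on the other strand.

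Dlx2 varied widely among the ablated mice. It was 13.9 CPM in A1 and 12.8 CPM in A3, 3.62 CPM in A2, 0.32 CPM in A4, and had no count in A5. That allows at most 0.359 CPM by library total, without TMM factors. The controls ran from 8.87 CPM in T1 to 45.6 CPM in T4, with a median of 18.1 CPM. All 5 ablated libraries were under that median, yet A1 and A3 lay inside the control range. The means were 6.13 ± 6.76 CPM (SD, n = 5) and 20.8 ± 10.9 CPM (SD, n = 10), and the log2 change of -1.76 ± 0.81 missed the threshold (edgeR adjusted p = 0.493). The exact permutation test of log2 CPM gave p = 0.00932 (adjusted p = 0.402). With limma-voom in place of edgeR (the study names limma), Dlx2 was called (log2 change -3.47, adjusted p = 0.524) and Dlx1 was not (-2.01, adjusted p = 0.607).

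Dlx5, Dlx6 and Dlx6os1, of the chromosome 6 locus, were not called and were uneven among ablated mice. Dlx5 was 23.6, 10.3, 15.4, 0.64 and 39.7 CPM in A1 to A5, so that A4 lay under every control (7.31 to 44.9 CPM) and A5 above all but 1 of them. Dlx6 ran from 7.65 to 26.5 CPM in ablated and from 11.6 to 46.5 CPM in control mice, and 4 of 5 ablated libraries were under the control median. Dlx6os1 ran from 8.19 to 36.1 CPM and from 13.0 to 45.5 CPM, with 3 ablated libraries under the lowest control and the other 2 above the control median. The log2 changes of Dlx5, Dlx6 and Dlx6os1 were -0.32 ± 0.56, -0.58 ± 0.38 and -0.37 ± 0.41 (SE), none of them called, and the intervals of 2 SE reached down to -1.45, -1.34 and -1.19, so that a 2-fold fall lay within them. Dlx6 shares 104 exon bases with Dlx6os2, an antisense RNA gene that is no member and was itself called lower (named after its values were seen). Its mean log2 CPM was -2.57 in ablated and -0.25 in control mice. The ablated mean was at about the level that no count gives (-2.58 for Sp8 in A2). Its call thus rests on control libraries that passed the limit on low values and is not counted as support. The symbol Dlx6os1 names 2 genes of the annotation, the antisense RNA and a short RNA of 146 bases.

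Pbx3 and Meis2, the TALE factors, had nearly the same mean level in ablated and control mice. Pbx3 was 55.0, 36.2, 34.7, 85.4 and 57.2 CPM in A1 to A5 and 23.6 to 92.4 CPM in controls. Meis2 was 550, 309, 572, 480 and 510 CPM in A1 to A5 and 339 to 677 CPM in controls, and A2 was the only ablated library under the control range. The log2 changes were 0.08 ± 0.30 and -0.01 ± 0.17 (SE; edgeR adjusted p = 0.967 and 0.992), with intervals of 2 SE of -0.52 to 0.69 and -0.36 to 0.33. For both a 2-fold change in either direction lay outside the interval.

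Meis2 was also the most abundant of the 9 in control SVZ per length, at 40.6 ± 9.34 RPKM (CPM per kilobase of exon; SD, n = 10), apart from all the rest. Dlx5 (9.91 RPKM), Dlx6 (9.28), Pbx3 (8.30), Dlx2 (7.28), Sp9 (6.98), Dlx1 (5.02) and Dlx6os1 (4.69) followed in this order of RPKM levels, and each overlapped the next within 1 SD. Sp8 was lowest, at 1.65 ± 1.64 RPKM.

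The 4 groups fitted apart showed which controls carried the calls. A contrast of GCV with PBS mice cannot be told apart from the order of the sample titles, whose first numbers split by drug. Against NestinTK+PBS+ mice, which share the transgene, Dlx1 was lower by a log2 change of -2.44 ± 0.60 and Sp8 by -6.20 ± 1.68 (SE; edgeR adjusted p = 0.607 and 0.618), and both were called, as were 0.965% of genes tested in this direction. Here too the Sp8 call is not counted as support. Against NestinTK-GCV+ mice, which share the drug, the log2 changes were -1.46 ± 0.62 and -4.52 ± 1.62 (edgeR adjusted p = 0.665 for both), and neither was called, against 0.574% of genes. The direction was the same in both contrasts, which share the ablated mice. Control Dlx1 and Sp8 were lowest on average in the NestinTK-GCV+ group, at 17.5 and 3.55 CPM, and highest in the NestinTK+PBS+ group, at 34.7 and 11.4 CPM.

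Neither GCV without the transgene nor the transgene without GCV moved a factor past the thresholds in the SVZ. No member was called between NestinTK-GCV+ and NestinTK-PBS+ mice, where 1.06% of genes were, or between NestinTK+PBS+ and NestinTK-PBS+ mice, where 0.195% were. The genotype-by-treatment interaction, the part of the change that takes both, was -1.84 ± 0.92 for Dlx1, -5.38 ± 2.34 for Sp8 and -2.18 ± 1.49 for Dlx2 on the log2 scale (SE; edgeR adjusted p = 0.942, 0.942 and 0.967). No member was called for it, against 0.837% of genes. In the other 6 factors the interaction lay between -0.31 and 0.33.

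Genes of the same lineage on a list of 18 subpallial progenitor and olfactory bulb interneuron factors moved in part with Dlx1 and Sp8. Of the 17 tested, Gsx2, Sox4 and Sox11 fell and none rose, where 1.22% of all genes were called lower and 0.373% higher. The median log2 change was -0.57, against -0.03 over all genes. Gsx2, which acts upstream of Dlx genes in progenitors, had a mean of 0.0278 CPM in ablated and 2.14 CPM in control mice. Like Sp8, Gsx2 passed the limit on low values only through control libraries, so its call is not counted as support, which leaves Sox4 and Sox11. Sox4 and Sox11, factors of young neurons, fell by 1.79 ± 0.54 and 1.16 ± 0.33 on the log2 scale (SE; edgeR adjusted p = 0.348 and 0.347). Pax6, which acts in progenitors, had a log2 change of -0.74 that was not called.

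The neuroblast list marks the loss the design aims at. Of its 10 genes 4 fell, namely Dcx, Sox11, Igfbpl1 and Draxin, and none rose, with a median log2 change of -1.17. Their summed level was 258 to 468 CPM in ablated and 408 to 938 CPM in control mice, and 3 ablated libraries lay under every control. Of 10 genes of dividing cells, Top2a and Pbk fell, and of 8 tested stem or transit-amplifying cell genes Gsx2. Over all genes 1.22% were called lower. Sox11 and Gsx2 also stand on the list of lineage factors above, so these lists are not separate support, and the call of Gsx2 is not counted as support on either. Nrep and Dpysl3 on the neuroblast list had log2 changes of -0.06 and -0.29 that were not called.

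No gene on the lists of mature neurons fell. None of 14 spiny neuron factors was called, 1 of them had a log2 change below 0, and their summed level was 2224 to 3687 CPM in ablated and 1910 to 2862 CPM in control mice. Bcl11b, Foxp1, Foxp2 and Ebf1 on this list had log2 changes of 0.34, 0.33, 0.02 and 0.23. None of 10 spiny neuron markers, of 4 genes of GABA synthesis and packing or of the 7 tested factors of medial eminence interneurons was called. Of 9 striatal interneuron genes Nos1, the neuronal nitric oxide synthase, was higher, at 74.5 CPM against 36.2 CPM.

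Markers of other cell types also differed between the groups, beside the fall of Dlx1 and Sp8. Of 6 choroid plexus genes Ttr, Folr1 and Otx2 fell, and of 6 ependymal genes Ccdc153 and Rarres2 fell, against 1.22% of all genes. Their part in the result was not tested. The ependymal sum was 20.3 to 235 CPM in ablated and 85.2 to 314 CPM in control mice, and the choroid plexus sum 18.2 to 243 CPM and 15.7 to 102665 CPM. Folr1 and Otx2 had no count in at least 1 library. Without the 3 control mice rich in Ttr the log2 changes were -2.29 for Dlx1 and -5.94 for Sp8, and both were still called, though that of Sp8 is not counted as support. Septal neuron genes (4 of 5 tested) and cortical excitatory neuron genes (6 of 6) were not called, with sums of 0.747 to 113 CPM and 2.35 to 641 CPM. The highest septal sum was in T4, and cortical sums of 641, 110 and 626 CPM in A2, G1 and G3 stood above 2.35 to 22.7 CPM in the other mice; these 3 mice had received GCV, and the part of either list was not tested. No gene of the astrocyte, oligodendrocyte, oligodendrocyte precursor, microglia and endothelial lists was called in the SVZ.

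In the striatum none of the 9 factors was called lower, against 0.24% of genes tested, or higher, against 0.454%. The striatum kit counts 1 tag at the 3' end of a transcript, so that CPM can be compared between genes there without a length. Meis2 (783 ± 153 CPM; SD, n = 10 controls) and Pbx3 (277 ± 57.5 CPM) stood far above the rest and apart from each other, followed by Dlx1 (26.8 CPM), Dlx6 (21.1), Sp9 (12.5), Dlx6os1 (11.7), Dlx5 (10.0) and Dlx2 (5.15), whose neighbours in this order overlapped within 1 SD. Sp8 was at 0.654 ± 0.786 CPM, with at most 8 counts in any library.

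**Figure D2:**
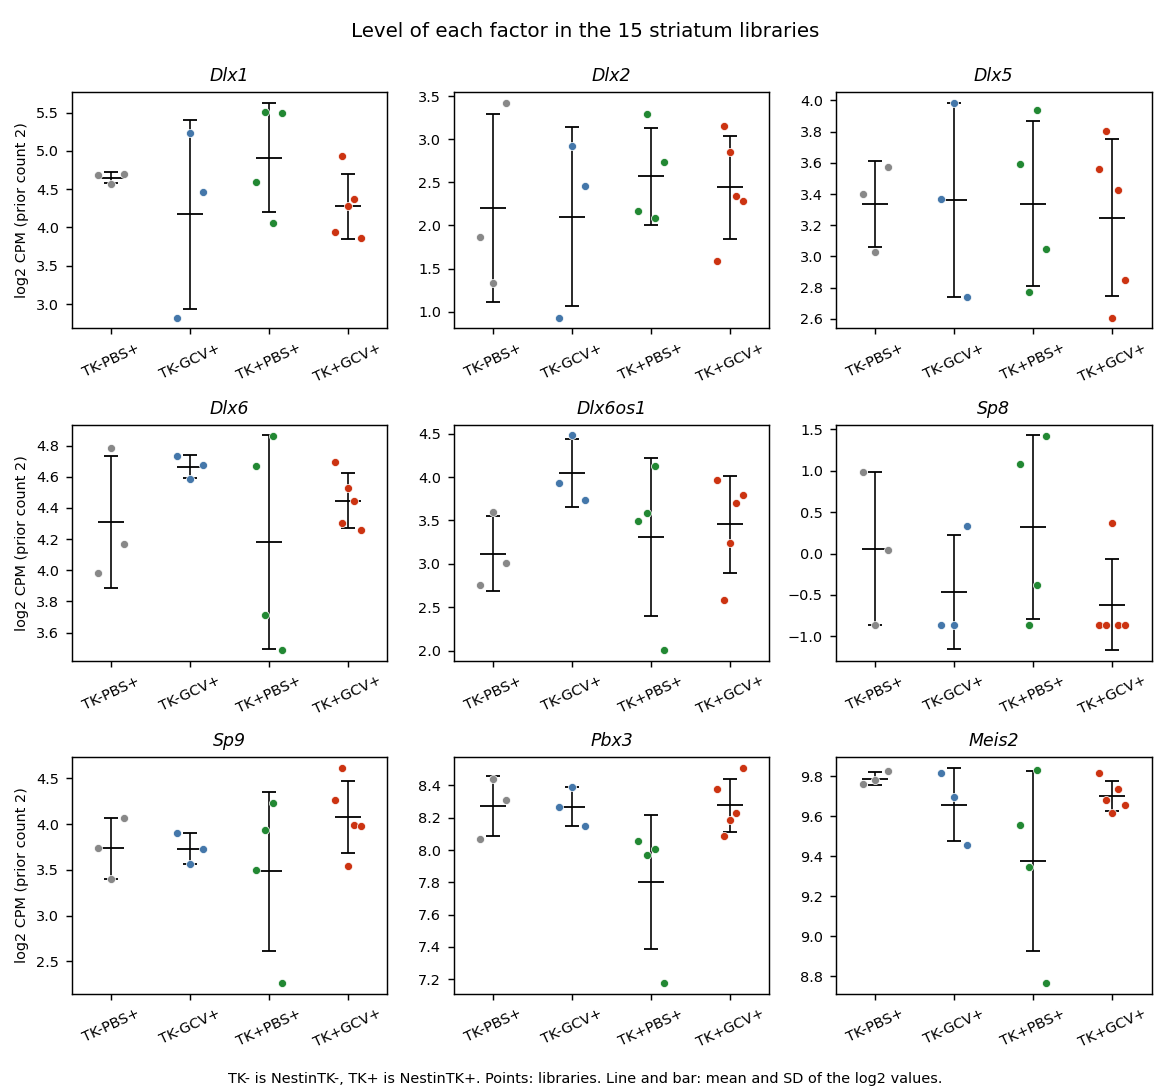
Level of each factor in the striatum (y axis, log2 CPM with a prior count of 2) in the 4 groups (x axis); each point is 1 library, and the line and bar give the mean and SD of the log2 values. The NestinTK+GCV+ libraries overlap the controls for every factor, and T4 is the lowest library for Meis2 and Pbx3.

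Meis2 was 900, 820, 785, 852 and 807 CPM in the striatum of A1 to A5. The controls were 703 to 910.0 CPM in all mice but T2 (650.0 CPM) and T4 (436 CPM). The ablated libraries were thus inside the range, and the log2 change was 0.09 ± 0.13 (SE; edgeR adjusted p = 0.874). Pbx3 was 332, 271, 291, 299 and 364 CPM in A1 to A5. It was 268 to 347 CPM in the 6 NestinTK- controls and 266, 250, 256 and 144 CPM in T1 to T4. T1 (266 CPM) lay only just under the lowest library of the other groups, P1 (268 CPM). The share of genes with such a split is not given, so nothing is read from it. The log2 change against pooled controls was 0.17 ± 0.14 (SE; edgeR adjusted p = 0.731).

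The Dlx genes in the striatum had overlapping groups throughout. Dlx1 was 13.9 to 30.1 CPM in ablated and 6.52 to 45.0 CPM in control mice, with a log2 change of -0.45 ± 0.30, whose interval of 2 SE ran from -1.05 to 0.15. Dlx2 was 2.46 to 8.33 CPM and 1.36 to 10.2 CPM, with 0.04 ± 0.40. Dlx5, Dlx6 and Dlx6os1 changed by -0.10 ± 0.26, 0.01 ± 0.21 and -0.08 ± 0.31 (SE). Unlike in the SVZ, no ablated library was without Dlx2 counts, and Dlx6 held 18.6 to 25.3 CPM in all 5 ablated mice. Sp9 was 18.7, 23.9, 11.1, 15.3 and 15.3 CPM in A1 to A5 and 4.26 to 18.3 CPM in controls, with a log2 change of 0.42 ± 0.24 (SE; edgeR adjusted p = 0.566).

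Sp8 could not be followed in the striatum at this depth. It had 2 counts in A3 and 0 in the other 4 ablated libraries, which allows at most 0.89 to 1.12 CPM by library total there. The controls had 0 to 8 counts, with 4 of 10 at 0, so that no fold is given.

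In the contrasts of the 4 groups no member was called in the striatum. The share of genes called in either direction was 1.35% between NestinTK+GCV+ and NestinTK+PBS+ mice, 2.1% between NestinTK+GCV+ and NestinTK-GCV+ mice, 2.46% between NestinTK-GCV+ and NestinTK-PBS+ mice, 0.83% between NestinTK+PBS+ and NestinTK-PBS+ mice and 3.28% for the interaction. Pbx3 had the lowest p-value among them, higher in NestinTK+GCV+ than in NestinTK+PBS+ mice by a log2 change of 0.44 ± 0.15 (SE; edgeR adjusted p = 0.266), under 2-fold. It was also 0.44 ± 0.17 lower on the log2 scale in NestinTK+PBS+ than in NestinTK-PBS+ mice (edgeR adjusted p = 0.748). Both contrasts use T4, whose Pbx3 was the lowest of all, and without T4 the log2 change against pooled controls was 0.09 for Pbx3 and 0.02 for Meis2.

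None of the 15 tested subpallial progenitor and interneuron factors, the 14 spiny neuron factors or the 10 neuroblast genes was called in the striatum. The neuroblast sum was 451 to 576 CPM in ablated and 399 to 727 CPM in control mice, and the spiny neuron factor sum 3957 to 5146 CPM and 2670 to 4879 CPM. Bcl11b and Foxp1, which hold the spiny neuron fate, had striatal log2 changes of -0.01 and -0.04. Called striatal list genes were Pvalb, Gfap and Ttr, which fell, and T4 had the highest sums of the striatal interneuron list (780 CPM, against 246 to 376 CPM in the other mice) and of the choroid plexus list (1416 CPM, against 12.8 to 49.8 CPM). Without T4, an alternative chosen after seeing the data, the control mean of Pvalb was 63.8 CPM instead of 114 CPM. The log2 change of Pvalb went from -1.90 to -1.07 and that of Gfap from -1.57 to -1.39, both still called, and that of Ttr from -4.88 to -0.94, no longer called.

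Oligodendrocyte genes lay on the lower side in the ablated striatum, by less than 2-fold. All 6 had a log2 change below 0, with a median of -0.61, and none was called. Mag, a myelin protein gene, had a log2 change of -0.91 ± 0.15 (SE; edgeR adjusted p = 0.0117), and without T4 it was -0.85 (adjusted p = 0.00506). The oligodendrocyte sum was 1948 to 2562 CPM in ablated and 2079 to 5522 CPM in control mice, and its part in the members' values was not tested.

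The change in the SVZ was set against the change in the striatum of the same mice, from each mouse's SVZ minus striatum log2 CPM. The kits differ between tissues, so only differences between changes are compared. The SVZ change was the lower by 1.66 for Dlx1 and by 3.19 for Dlx2 on the log2 scale (exact permutation test over 3003 splits, two-sided, p = 0.00599 and 0.0147). These 2 of the 8 factors that could be followed in the striatum passed an unadjusted p-value of 0.05 with the SVZ change the lower, against 5.95% of the 14197 genes tested in both tissues. After adjustment over all of these genes the p-values were 0.334 and 0.378, and no gene of the table was under 0.05. Neither passed with a single control group, with exact permutation p-values of 0.107 and 0.143 against NestinTK-GCV+ mice and of 0.0635 for both against NestinTK+PBS+ mice, at differences of -1.64 and -3.24 and of -1.58 and -3.27. No tissue comparison is made for Sp8, whose striatum counts were too few. For the other 6 factors the difference lay between -0.88 (Dlx5) and -0.08 (Pbx3), with exact permutation p-values of 0.0959 to 0.808. Without A5 or without G3 the difference of Dlx6 passed 0.05 as well (-0.96 and -0.80, exact permutation p = 0.0140 and 0.0450).

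**Figure D3:**
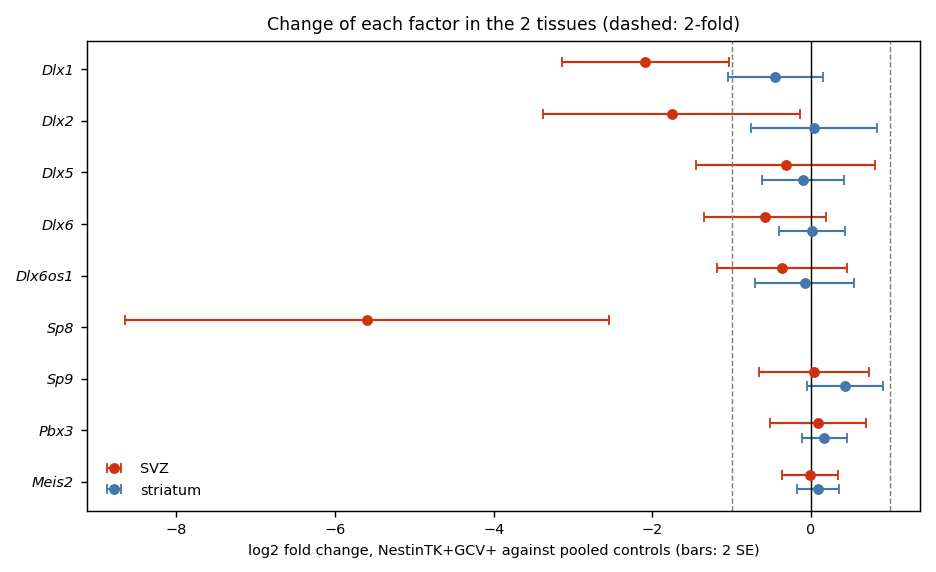
Log2 fold change of each factor (x axis), NestinTK+GCV+ against pooled controls, in the SVZ and in the striatum, with bars of 2 SE; the dashed lines mark 2-fold. Dlx1 (-2.09) and Sp8 (-5.60) lie beyond 2-fold in the SVZ with their bars, and no point for the striatum lies beyond it; Sp8 in the striatum is left out because no library there had more than 8 counts.

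Among the 10 control SVZ libraries, without any ablated mouse, the factors differed in their correlation with the cell type lists, neither of which holds a member. Pbx3, Meis2 and Dlx6 rose with the mean log2 CPM of the spiny neuron list, with Pearson r of 0.85, 0.83 and 0.75 and Spearman rho of 0.79, 0.88 and 0.83. Permutation p-values of r were 0.00151, 0.00193 and 0.0132, and those of rho 0.00875, 0.00129 and 0.00469. Adjusted over all 16375 genes they were 0.291, 0.296 and 0.524 for r and 0.589, 0.432 and 0.576 for rho, and no gene of the table reached 0.05. At an unadjusted p-value under 0.05, 7.34% of genes followed this list in either sign.

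Without G3 and T4, the libraries farthest from the median of the spiny neuron list, r was 0.70 for Pbx3, 0.93 for Meis2 and 0.50 for Dlx6. Without the 3 libraries rich in Ttr it was 0.91, 0.87 and 0.79. No such relation was seen for Dlx1, Dlx2 and Sp8, with r of -0.17, -0.11 and -0.14 and permutation p-values of 0.649, 0.773 and 0.693. Without G3 and T4 these turned to 0.39, 0.48 and 0.02.

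With the neuroblast list only Sp9 passed an unadjusted p-value of 0.05, with r of 0.65 and rho of 0.76 (permutation p = 0.0407 and 0.0137, adjusted p = 0.999 and 1), and 4.7% of all genes did so in either sign. Its r was 0.63 without G1 and T2, the libraries farthest from the median. Dlx1 and Sp8, the factors that fell on ablation, had r of 0.48 each (permutation p = 0.155 and 0.160), and rho of 0.45 and 0.58 (permutation p = 0.190 and 0.0885). Dlx2 had r of 0.35, Meis2 of -0.15 and Dlx5 of -0.44 (permutation p = 0.316, 0.676 and 0.202). In all, 18 relations of members were computed. Levels of 10 libraries share depth and dissection, and a relation across them says nothing of which cell holds a transcript.

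**Figure D4:**
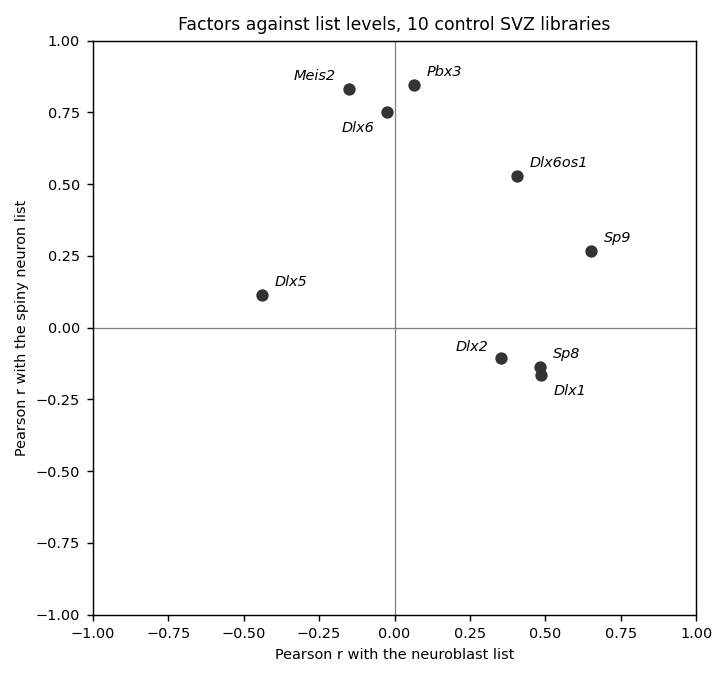
Pearson r of each factor with the neuroblast list (x axis) and with the spiny neuron list (y axis), each over the log2 CPM of the 10 control SVZ libraries; each point is 1 factor. Pbx3, Meis2 and Dlx6 lie at the top, near 0 on the neuroblast axis, and Dlx1, Dlx2 and Sp8 lie to the right, under 0 on the spiny neuron axis, a sign that turned without G3 and T4.

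The genes whose control levels were most like those of 4 members are given as a description. For Meis2 in the SVZ they were Pitpnm2 (r = 0.96 over 10 libraries), Sipa1l1 and Phactr1, and for Pbx3 Gm10086 (r = 0.95), Foxp1 and Bcr. In the striatum they were Zfp120 (r = 0.98), Plcb1 and Itpr1 for Meis2, and Lmo7 (r = 0.97), Foxo1 and Ccsap for Pbx3. Foxp1 and Foxo1 stand on the list of spiny neuron factors. For Dlx2 they were Slc24a3 (r = 0.88), Podxl and Ascc1 in the SVZ and Sulf1 (r = 0.94), Gm28151 and Lockd in the striatum, and for Sp8 Gar1 (r = 0.94), Fam193a and Ddx56 in the SVZ. The striatal neighbours of Sp8, Txnrd3, Gm5124 and Ankrd44, were found over 0 to 8 Sp8 counts a library.

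Set side by side, the 2 adjacent Dlx pairs did not keep their ratios in every ablated mouse. In log2 terms Dlx1 was 1.36 ± 2.28 above Dlx2 in ablated mice and 0.29 ± 0.70 above it in control mice (SD, n = 5 and 10), with ablated ratios from -1.22 to 3.68. Dlx5 was 0.40 ± 2.13 under Dlx6 in ablated and 0.02 ± 0.78 under it in control mice. The wide ablated spread came from A4 and A5 for Dlx2 and from A4 for Dlx5, libraries with 3 counts or fewer of Dlx2 and 6 counts of Dlx5. These ratios are a description and were not tested.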

How the data were processed

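Total RNA of the SVZ and the striatum of 15 mice was sequenced, with a full-length low-input kit (SMART-Seq v4) for the SVZ and a 3' tag kit (QuantSeq) for the striatum. The authors trimmed reads (Trimmomatic 0.36 per the labels), aligned them with STAR 2.5.3a to GRCm38 (mm10) and deposited raw counts per gene from featureCounts, 1 table per tissue; the strand setting is not given in the sources used here. Because the kits differ, levels were not compared between tissues. RPKM and CPM were computed here from those counts. No column of another series was used.

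A gene was tested in a tissue where 3 or more libraries held over 1 CPM of it. Each tissue was fitted with edgeR 4.0.16 (R 4.3.3; TMM factors, quasi-likelihood test), with the 3 control groups pooled or the 4 groups apart, and Benjamini-Hochberg adjustment over all genes tested. A call needed p of at most 0.01 and a 2-fold change, the study's thresholds. The study names limma, and edgeR was used here because the values are counts. log2 CPM had a prior count of 2. The tissue difference used an exact permutation test over all 3003 splits of the mice, correlations 100000 permutations, both two-sided (scipy 1.17.1). Alternatives were limma-voom (limma 3.58.1), DESeq2 1.42.0, other size factors, no filter, single control groups, and each mouse left out. Scripts were tested on simulated data. The columns were checked against the labels, and mice were separate animals.

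The members and gene lists were chosen with earlier results of these data known. Named were all 9 members, genes of the lists that were called or that represent a list, and the 3 genes most like each of 4 members. Intervals are 2 SE. Limits at 0 counts (3 counts over the library total, without TMM factors) cover counting error only. In the SVZ, whose kit keeps no strand, reads of a gene and its antisense partner cannot be told apart. For the striatum the strand setting of the counts is not known here.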

Additional observations from a re-analysis of the deposited data

Results flagged for a closer look

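Of 36 groups of 4 or 5 libraries, 1 per member, tissue and group, the highest or lowest library stood apart from the rest in 4. Chance alone gives about 1 in 20 for values without ties. That rate does not apply to the Sp8 groups, where every other library was at 0 and any count stands apart. Sp8 in the SVZ was 0.719 CPM in A1 and 0 in the other 4 ablated libraries, and Sp8 in the striatum was 0.739 CPM in A3 and 0 in the others, which are 6 and 2 counts. Meis2 in the SVZ was 309 CPM in A2 against 480 to 572 CPM in the other ablated libraries. Pbx3 in the striatum was 144 CPM in T4 against 250 to 266 CPM in the other NestinTK+PBS+ mice.

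The change on ablation differed between the tissues for Dlx1 and Dlx2 before adjustment, by -1.66 and -3.19 (SVZ minus striatum, log2; exact permutation p = 0.00599 and 0.0147, adjusted p = 0.334 and 0.378). The same difference came to -3.59 for Sp8, but it uses striatum libraries with 0 to 8 counts of a gene that passed the limit on low values through 3 control libraries, and nothing is read from it. The cause was not tested.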

How the results depend on the processing

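Leaving out each mouse in turn kept the SVZ calls of Dlx1 (log2 change -2.35 to -1.86) and Sp8 (-9.52 to -5.18) in 15 of 15 fits. With no Sp8 count in any ablated library but A1, the limit on low values favoured its calls. They are not counted as support. Dlx1 lost its call with limma-voom (-2.01, adjusted p = 0.607) and against NestinTK-GCV+ mice alone (-1.45, adjusted p = 0.999), as did Sp8 with those controls (-4.50, adjusted p = 0.999), so that 0 members were then called lower. Dlx2 was called with limma-voom (-3.47). An exact permutation test of log2 CPM, chosen after seeing the data, gave differences of -1.99 for Dlx1, -3.07 for Dlx2 and -4.21 for Sp8. Its p-values were 0.00200, 0.00932 and 0.00400, and 0.312, 0.402 and 0.322 after adjustment over all genes. With DESeq2 the adjusted p was 0.00602 for Dlx1 and 0.00115 for Sp8, given without the share of all genes. The members whose SVZ change was the lower by the tissue test numbered 3, Sp8 included, and 1 when controls were limited to NestinTK-GCV+ or to NestinTK+PBS+ mice, namely Sp8, whose striatum counts were too few for this comparison; fewer mice entered those fits. Without 1 mouse at a time, SVZ log2 changes that were not called crossed 0, with ranges of -0.080 to 0.11 for Meis2, -0.078 to 0.19 for Sp9, -0.15 to 0.22 for Pbx3. With DESeq2 the sign turned to 0.0042 for Meis2. With limma-voom the sign turned to 0.025 for Meis2. With DESeq2's size factors the sign turned to 0.0042 for Meis2. With NestinTK+PBS+ controls alone the sign turned to 0.064 for Meis2. With the Ttr-rich controls left out the sign turned to -0.15 for Sp9. With a term for the series of mouse numbers the sign turned to 0.066 for Meis2. Without 1 mouse at a time, striatum log2 changes that were not called crossed 0, with ranges of -0.064 to 0.064 for Dlx6, -0.19 to 0.22 for Dlx2, -0.22 to 0.088 for Dlx6os1, -0.26 to 0.038 for Dlx5. With limma-voom the sign turned to 0.0064 for Dlx6os1. With NestinTK+PBS+ controls alone the sign turned to -0.11 for Dlx2, 0.042 for Dlx6os1. With NestinTK-GCV+ controls alone the sign turned to -0.24 for Dlx6, -0.013 for Pbx3. With the Ttr-rich controls left out the sign turned to -0.20 for Dlx2. With a term for the series of mouse numbers the sign turned to -0.24 for Dlx2. Without 1 mouse at a time, tissue differences that were not called crossed 0, with ranges of -0.53 to 0.027 for Sp9, -0.22 to 0.018 for Meis2, -0.28 to 0.036 for Pbx3, -1.46 to 0.092 for Dlx5. With NestinTK-GCV+ controls alone the sign turned to 0.014 for Dlx6os1, 0.32 for Pbx3. Without the 2 farthest libraries r turned to 0.10 (Dlx6, neuroblast), -0.11 (Pbx3, neuroblast), 0.39 (Dlx1, spiny neuron), 0.48 (Dlx2, spiny neuron), 0.020 (Sp8, spiny neuron). The cause was not tested. Depth limits Sp8 in the striatum, with at most 8 counts a library. Mice could not be paired across groups, because replicate numbers follow accession order within a group and tie no mice across groups. The SVZ and striatum libraries of each mouse were paired in the tissue difference.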
